A study of Homo sapiens with 2 samples.

Results

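LDB1 peaks at 10 apoptosis genes of the BCL2 family were examined in NB4 cells, an established human line of acute promyelocytic leukemia. The rule names the 10 genes and uses no measured value, though the genes were chosen with earlier results of these data known. They were the pro-survival genes BCL2, BCL2L1, MCL1 and BCL2A1 and the pro-death genes BAX, BAK1, BCL2L11, BBC3, PMAIP1 and BNIP3L. A peak was counted for a gene when it overlapped, by at least 1 bp, the GENCODE release 44 gene body extended by 20 kb on each side. By this rule 26 of the 11046 deposited LDB1 peaks belonged to the 10 genes, out of 19970 protein-coding genes on chromosomes 1 to 22 and X. The peaks came from CUT&Tag, in which an antibody brings a transposase to the protein of interest and the DNA next to it is cut and tagged. There were 2 libraries of NB4 cells, 1 with an antibody to LDB1 and labelled LDB1 overexpression, and 1 with IgG and labelled untreated. Antibody and treatment therefore cannot be told apart. With 1 library per group no test between samples was possible, and the intervals below are 95% intervals of counting error within the LDB1 library.

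Proteins of the BCL2 family decide whether the outer membrane of the mitochondrion stays intact. Pro-survival members hold the effectors BAX and BAK1 in check, and BH3-only proteins such as BIM, PUMA and NOXA bind the pro-survival members or activate the effectors, so that the membrane becomes permeable and caspases are activated. LDB1 does not bind DNA itself. It binds LMO2, which bridges it to DNA-binding factors such as GATA factors and TAL1, and the element known for this complex is composed of part of an E-box (CTG) and a GATA motif at a set distance.

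To show where the LDB1 peaks carried this composite element, the peak sequences were searched on both strands for CTG followed after 7 or 8 bases by a GATA motif (the letters GATA with A or T before them and A or G after them). Of the 26 peaks, 3 (11.5%) held a composite anywhere in the peak, compared with 22.4% of all peaks, and each had a spacing of 7 bases. They lay at BCL2L1, PMAIP1 and BCL2L11, and their sequences are given below because they match the element known for the LDB1 complex. A match is a description of the sequence and not a measured site. At BCL2L1 and PMAIP1 the composite lay within 100 bases of the peak midpoint, at 14 and 25 bp from it, and the 200 bp around the midpoint are shown. At BCL2L11 it lay 97 bp before the midpoint and ran past the edge of that window, so the whole peak of 264 bp is shown, a choice made after its values were seen. Sequences are from the plus strand of hg38, 5′ to 3′, with the composite and any other GATA motif in capitals. The composites of BCL2L1 and PMAIP1 lie on the minus strand, where they read CTGCTAGGCCTGATAG and CTGTCTGCAGAGATAA. That of BCL2L11 lies on the plus strand and reads CTGTTCTTGGAGATAA.
BCL2L1, intron 2, chr20:31675947-31676146: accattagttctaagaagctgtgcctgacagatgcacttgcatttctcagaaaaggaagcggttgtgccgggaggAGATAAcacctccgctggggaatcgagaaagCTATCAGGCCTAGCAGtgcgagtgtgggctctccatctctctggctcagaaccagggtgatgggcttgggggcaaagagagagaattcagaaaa
PMAIP1, downstream, chr18:59918423-59918622: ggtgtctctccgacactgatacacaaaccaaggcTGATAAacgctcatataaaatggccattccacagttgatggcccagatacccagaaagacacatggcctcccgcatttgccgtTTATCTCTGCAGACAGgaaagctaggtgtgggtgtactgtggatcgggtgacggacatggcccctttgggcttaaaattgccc
BCL2L11, downstream, chr2:111182320-111182583: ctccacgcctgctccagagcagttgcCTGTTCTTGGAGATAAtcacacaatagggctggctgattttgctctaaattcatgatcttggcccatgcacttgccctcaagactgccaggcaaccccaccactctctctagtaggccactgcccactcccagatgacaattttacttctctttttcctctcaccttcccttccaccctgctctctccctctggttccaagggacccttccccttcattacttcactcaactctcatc

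Results showed that 8 of the 10 genes (80%, interval 49 to 94.3%) had at least 1 peak in the window, while 31.8% of all protein-coding genes did (6348 of 19970). Because the genes were chosen with earlier results of these data known, this comparison is a description and not a test. The pro-death genes had a peak in 6 of 6 cases and the pro-survival genes in 2 of 4. BCL2L1 had 7 peaks, BAX had 6, BBC3 had 4, and MCL1, BCL2L11, PMAIP1 and BNIP3L had 2 each. BAK1 had 1 peak, and BCL2 and BCL2A1 had 0. Among all protein-coding genes, 15% had at least 2 peaks, 4.53% at least 4, 1.8% at least 6 and 1.19% at least 7. With the window narrowed to 3 kb on each side, 5 of the 10 genes had a peak (BCL2L1, BAX, BCL2L11, BBC3 and BNIP3L), compared with 19.8% of all protein-coding genes.

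**Figure D1:**
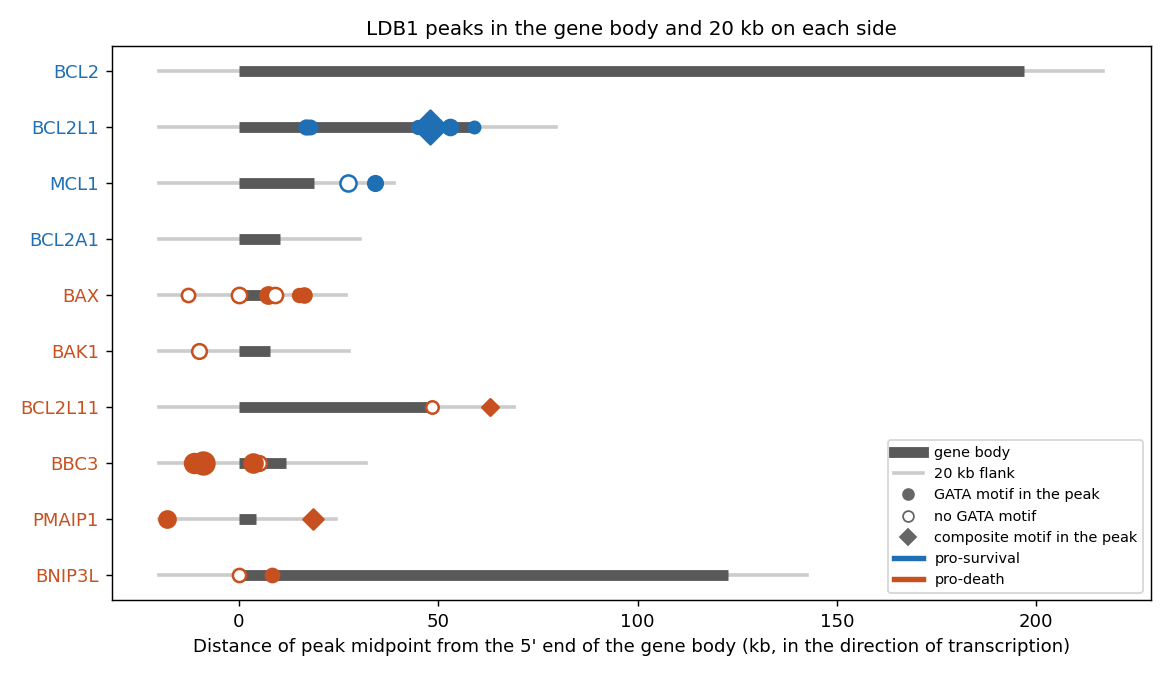
Each row is 1 gene, drawn from its 5′ end in the direction of transcription (x axis, kb), with the gene body in dark grey, the 20 kb flanks in light grey and the 26 LDB1 peaks as symbols whose area grows with peak length. Diamonds mark the 3 peaks with a composite, filled circles other peaks with a GATA motif anywhere in the peak and open circles those without, and the rows of BCL2 and BCL2A1 hold no symbol.

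BCL2L1 encodes BCL-XL, a pro-survival protein that is known to keep maturing red cells alive. The gene (ENSG00000171552.14, chromosome 20, 31664452 to 31723989, minus strand) held all of its 7 peaks within its body, 4342 bp in total. Its density was 7.03 peaks per 100 kb (interval 2.83 to 14.5), and only 1.2% of the genes with a window of like length had at least as many peaks. Of the 7 peaks, 6 lay in intron 2, which measures 55568 bp and separates the second exon from the last. None lay within 3 kb of a BCL2L1 transcription start site (TSS).

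The peaks of BCL2L1 fell into groups. The longest peak, 31675118 to 31676976 (1859 bp), was part of a run of 4 peaks that spanned 8333 bp, and 3222 bp of that span lay in peaks. Over its whole length it held 6 GATA motifs, 5 TAL1 E-boxes (CAGATG or CAGCTG) and the composite printed above. In its central 200 bp it held 2 GATA motifs and 1 TAL1 E-box, where 15.4% of all peaks had at least 2 GATA motifs. Its midpoint was 46821 bp downstream of the TSS of the canonical transcript. Only 1.77% of all peaks were at least as long. A gap of 26833 bp separated this run from a pair of peaks nearer to the TSS, 31705973 to 31706396 (424 bp) and 31706783 to 31707238 (456 bp), which were 386 bp apart. The last peak, 31664944 to 31665183 (240 bp), had its midpoint in the untranslated part of exon 3. COX4I2, a cytochrome c oxidase subunit gene, had the nearest protein-coding TSS for 4 of the 7 peaks, the longest among them. These peaks nevertheless lay inside BCL2L1. For the longest peak, the nearest TSS of any gene was that of BCL2L1-AS1, at 10169 bp, compared with 38114 bp to COX4I2. The peaks of 424 and 456 bp lay inside both BCL2L1 and BCL2L1-AS1. The peak of 424 bp is shown because it carried a TAL1 E-box and a GATA motif (both in capitals) near its centre without the composite spacing. It was chosen after its values were seen.
BCL2L1, intron 2, chr20:31706084-31706283: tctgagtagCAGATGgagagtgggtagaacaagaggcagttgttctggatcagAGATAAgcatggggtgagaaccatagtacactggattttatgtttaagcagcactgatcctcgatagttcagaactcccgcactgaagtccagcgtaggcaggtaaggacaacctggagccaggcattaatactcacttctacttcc

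**Figure D2:**
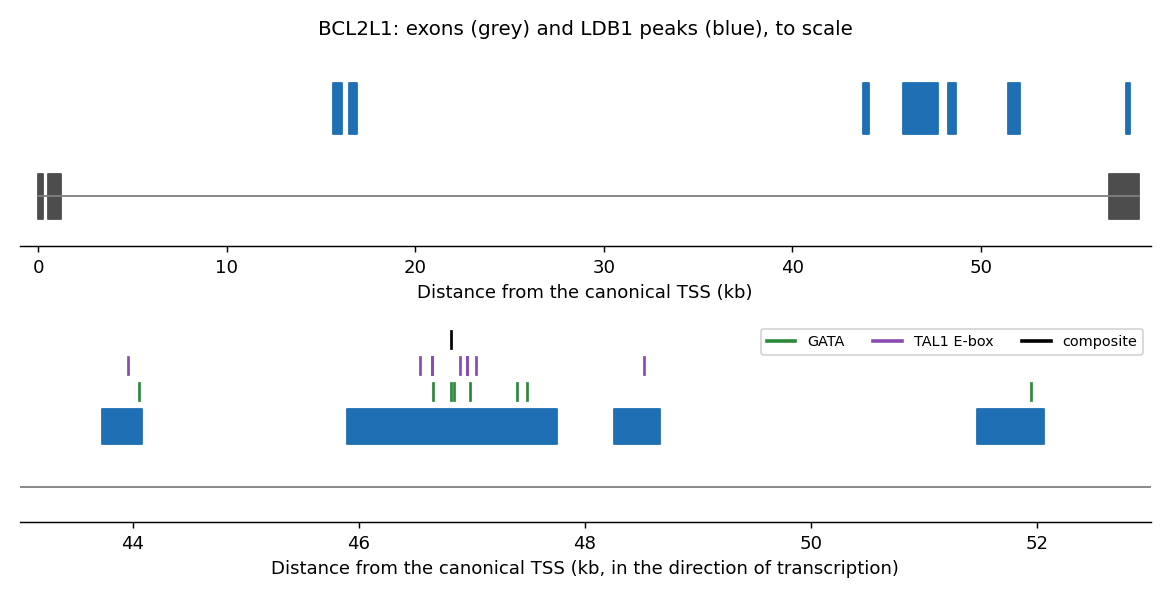
The upper panel shows BCL2L1 to scale, with exons of the canonical transcript as grey boxes, the 7 LDB1 peaks as blue boxes and distance from the TSS in kb, and the lower panel enlarges the run of 4 peaks with its motifs as vertical lines. The longest of the 4 carries 6 GATA motifs, 5 TAL1 E-boxes and the single composite, and its midpoint is 46821 bp from the TSS.

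MCL1 is a short-lived pro-survival protein on which many myeloid leukemia cells depend. The gene (ENSG00000143384.14, chromosome 1, 150560895 to 150579738, minus strand) had 2 peaks, and both lay downstream of it. The longer, 150552028 to 150552741 (714 bp), was 27226 bp from the canonical MCL1 TSS but 296 bp from a TSS of ADAMTSL4, which encodes a matrix protein. The other, 150545418 to 150545964 (547 bp), carried a GATA motif and was 3678 bp from an ADAMTSL4 TSS. No peak overlapped the body of MCL1 or its 3 kb flanks. The density was 3.4 per 100 kb (0.412 to 12.3), and 14.8% of genes with windows of like length had at least 2 peaks.

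BCL2 and BCL2A1, which encode the founding pro-survival protein and its haematopoietic relative A1, had no peak. The list holds no scores, so a missing peak says only that the signal was below the threshold of the peak caller. The window of BCL2 (ENSG00000171791.14, chromosome 18, 63123346 to 63320128, minus strand) was the longest of the 10 at 236783 bp, and 0 peaks in it allowed a density of up to 1.56 per 100 kb. Of the protein-coding genes with windows of like length, 40% had a peak. The whole stretch between the neighbouring peaks ran from 62851074 to 69975298, or 7124225 bp with 22 protein-coding genes. It ranked 30 of 11023 stretches between neighbouring peaks by length, with assembly gaps and centromeres included among them, and the median stretch was 30515 bp. The nearest peak was 272273 bp downstream of BCL2, and PHLPP1 had the closest TSS to it.

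BCL2A1 (ENSG00000140379.9, chromosome 15, 79960892 to 79971196, minus strand) lay in a stretch of 883633 bp without a peak. Its window of 50305 bp was shorter, and 0 peaks allowed a density of up to 7.33 per 100 kb, so that a density like that of BCL2L1 was within the interval. The nearest peak lay 83040 bp upstream, measured 235 bp and held a composite, and the closest protein-coding TSS to it was that of ZFAND6 at 5215 bp. It was outside the window and is no member peak.

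The effectors BAX and BAK1 form the pores of the outer mitochondrial membrane, and they differed in the number of peaks. BAX (ENSG00000087088.21, chromosome 19, 48954815 to 48961798, plus strand) had the highest density of the 10 genes, 12.8 per 100 kb (4.69 to 27.8), and 0.601% of genes with windows of like length had at least 6 peaks. On the whole of chromosome 19, which holds both BAX and BBC3, 43.2% of protein-coding genes had a peak. The windows of like length had one in 28% of cases.

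Only 1 of the 6 BAX peaks had a BAX TSS as its nearest coding TSS. This peak, 48954486 to 48955109 (624 bp), covered the TSS, with its midpoint 78 bp upstream of that of the canonical transcript. It held no GATA motif, no composite and no TAL1 E-box, and it had the highest GC content of the 26 peaks (71% in the central 200 bp, where the median of all peaks was 51.5%). A RUNX motif (TGTGGT or TGCGGT) lay in the 200 bp before the first BAX TSS, which are shown with this motif in capitals. They were chosen after their values were seen.
BAX, upstream of the TSS, chr19:48954615-48954814: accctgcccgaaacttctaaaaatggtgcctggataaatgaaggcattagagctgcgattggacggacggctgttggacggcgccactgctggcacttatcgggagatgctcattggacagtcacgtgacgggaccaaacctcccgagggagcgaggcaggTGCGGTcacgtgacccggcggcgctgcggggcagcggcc

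The other 5 peaks of BAX were nearer to its neighbours. The longest, 48961900 to 48962632 (733 bp), began 102 bp past the end of BAX and was 3043 bp from a TSS of FTL, the ferritin light chain. The next, 48963661 to 48964271 (611 bp), was 1343 bp from an FTL TSS. Its midpoint was 9 bp from a TSS of ENSG00000267898, which is not annotated as protein-coding. The peak of 733 bp was 1709 bp from a TSS of the same gene. A further 2, of 366 and 486 bp, were 828 and 372 bp from a TSS of GYS1, the muscle glycogen synthase. The last, 48941867 to 48942275 (409 bp), lay in DHDH, and its central 31 bases occurred 9 times in hg38, which leaves the placement of its reads uncertain. It was the only 1 of the 26 member peaks with a repeated centre, compared with 10.7% of all peaks.

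BAK1 (ENSG00000030110.14, chromosome 6, 33572547 to 33580293, minus strand) had a single peak, 33590102 to 33590653 (552 bp), in the noncoding gene LINC00336 and 10101 bp upstream of the canonical BAK1 TSS. The density was 2.09 per 100 kb (0.053 to 11.7), and 32.7% of genes with windows of like length had a peak. The next peak of the list was 104481 bp away. In its central 200 bp this peak held 3 AP-1 motifs (TGACTCA or TGAGTCA), 2 TAL1 E-boxes and 1 KLF motif (CCNCACCC, where N is any base). It held no GATA motif over its whole length. Among all peaks, 9.48% had an AP-1 motif in the central 200 bp and 10 of 11046 (0.0905%) had at least 3. The window is shown with only the AP-1 motifs in capitals, and it was chosen after its values were seen.
BAK1, upstream, chr6:33590277-33590476: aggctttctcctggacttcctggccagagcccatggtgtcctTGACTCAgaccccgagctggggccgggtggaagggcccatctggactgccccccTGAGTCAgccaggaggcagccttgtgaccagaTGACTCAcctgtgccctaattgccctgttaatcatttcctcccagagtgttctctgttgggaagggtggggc

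Among the BH3-only genes, BBC3 had the most peaks. It encodes PUMA, which is known as a target of p53. The gene (ENSG00000105327.18, chromosome 19, 47220822 to 47232766, minus strand) had 4 peaks, 7.7 per 100 kb (2.1 to 19.7), where 3.01% of genes with windows of like length had at least 4. Each of the 4 was longer than the median of all peaks, and the nearest coding TSS was that of BBC3 for each. SAE1, a subunit of the SUMO-activating enzyme, was the other protein-coding gene in the window.

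The BBC3 peaks formed pairs inside and upstream of the gene. Upstream, 47241020 to 47242539 (1520 bp) and 47243441 to 47244513 (1073 bp) lay 10580 and 12778 bp before the canonical TSS and 901 bp apart. They ranked 390 and 981 of 11046 by length. The nearest TSS of any annotated gene was that of ENSG00000289915 for both, at 2555 and 357 bp. This gene is not annotated as protein-coding, and the peak of 1073 bp had its midpoint in it. Inside, 47227377 to 47227933 (557 bp) was in intron 2 at 466 bp from the TSS of a shorter BBC3 transcript. The other, 47228714 to 47229675 (962 bp), was in intron 1 at 2005 bp from the canonical TSS. It carried the single GATA motif found in the central 200 bp of a BBC3 peak, in capitals in the sequence shown. This window was also chosen after its values were seen.
BBC3, intron 1, chr19:47229094-47229293: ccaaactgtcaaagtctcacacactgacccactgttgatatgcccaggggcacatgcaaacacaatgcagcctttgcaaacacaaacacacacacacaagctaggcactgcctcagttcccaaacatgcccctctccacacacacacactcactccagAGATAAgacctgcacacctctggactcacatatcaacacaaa

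PMAIP1 encodes NOXA, a BH3-only protein that binds MCL1 and A1. The gene (ENSG00000141682.12, chromosome 18, 59899996 to 59904305, plus strand) had no peak in its body or near its TSS. Its 2 peaks flanked it at similar distances, 59881759 to 59882484 (726 bp) at 17875 bp upstream of the TSS and 59918272 to 59918774 (503 bp) at 18527 bp downstream. No other protein-coding gene lay in the window. The downstream peak carried the composite printed above and a second GATA motif in its central 200 bp, and the upstream peak carried a GATA motif. The density was 4.51 per 100 kb (0.547 to 16.3), and 11.5% of genes with windows of like length had at least 2 peaks.

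BCL2L11 encodes BIM, which binds all of the pro-survival proteins. The gene (ENSG00000153094.25, chromosome 2, 111119378 to 111168444, plus strand) had 2 short peaks at and past its 3′ end, 2.25 per 100 kb (0.272 to 8.11). The longer, 111167671 to 111167999 (329 bp), had its midpoint in the untranslated part of exon 4 and a KLF motif (CCNCACCC, where N is any base). This midpoint also lay inside the noncoding gene MIR4435-2HG. The other peak, 111182320 to 111182583 (264 bp), lay 13876 bp past BCL2L11, also in MIR4435-2HG, and held the composite and a TAL1 E-box. The nearest coding TSS was that of BCL2L11 for both, at 44089 and 58705 bp. Upstream of BCL2L11 the nearest peak was 423289 bp away. Of genes with windows of like length, 14.8% had at least 2 peaks.

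BNIP3L encodes NIX, an atypical BH3-only protein and a receptor for the removal of mitochondria, known for its part in red cell maturation. It is counted here with the pro-death genes, though its main known role is in mitophagy. The gene (ENSG00000104765.16, chromosome 8, 26383054 to 26505636, plus strand) had 2 peaks at its 5′ end, 1.23 per 100 kb (0.149 to 4.44). One, 26382855 to 26383256 (402 bp), covered the TSS, with its midpoint in exon 1. The other, 26391131 to 26391534 (404 bp), was 8278 bp downstream in exon 2, 970 bp from the TSS of a shorter transcript, and carried a GATA motif. No other peak lay within 100 kb of the gene, and the nearest was 819533 bp downstream. Of genes with windows of like length, 20.4% had at least 2 peaks.

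To compare the genes with one another, the number of peaks was divided by the length of the window. The order was BAX, BBC3, BCL2L1, PMAIP1, MCL1, BCL2L11, BAK1 and BNIP3L, followed by BCL2 and BCL2A1 at 0. Neighbours in this order had overlapping intervals. The upper limit of BCL2 (1.56) lay below the lower limits of BAX (4.69), BCL2L1 (2.83) and BBC3 (2.1). That of BNIP3L (4.44) lay below the lower limit of BAX. These limits take peaks as independent, although BAX, BCL2L1 and BBC3 each held peaks under 1 kb apart. Over all protein-coding genes the median density was 0, the upper quartile 1.07 and the 90th percentile 2.57 per 100 kb. BAX, BBC3, BCL2L1, PMAIP1 and MCL1 stood above the 90th percentile, and for BAX and BCL2L1 the lower limit did so too.

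**Figure D3:**
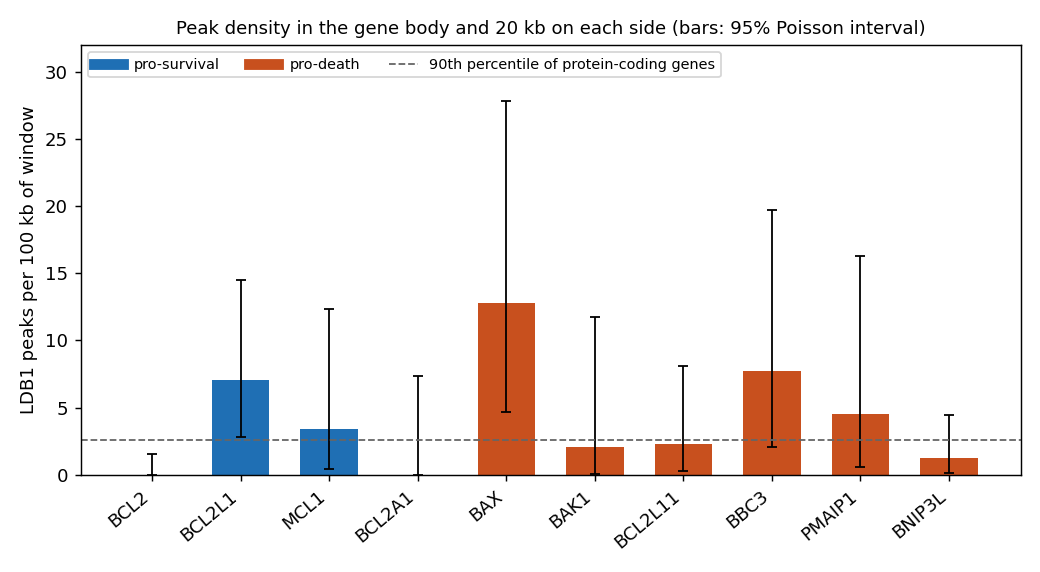
Bars give LDB1 peaks per 100 kb of window (y axis) for each of the 10 genes (x axis), with 95% Poisson intervals that cover counting error in 1 library and a dashed line at the 90th percentile of all protein-coding genes (2.57). The bars of BAX (12.8), BBC3 (7.7) and BCL2L1 (7.03) are the highest, and the interval of BCL2 (up to 1.56) ends below those of all 3.

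The pro-survival genes together had 9 peaks in 445470 bp, 2.02 per 100 kb (0.924 to 3.84). The pro-death genes had 17 peaks in 442636 bp, 3.84 per 100 kb (2.24 to 6.15). The ratio of pro-survival to pro-death density was 0.526 (0.207 to 1.25), and since this interval includes 1, the difference was within counting error. It rested on single genes: the ratio was 1.12 without BCL2, whose long window held no peak, and 0.151 without BCL2L1, which held 7 of the 9 pro-survival peaks. When only peaks whose nearest coding TSS was that of the gene itself were counted, 3 pro-survival and 12 pro-death peaks were left, with a ratio of 0.248 (0.045 to 0.92). Without BNIP3L the ratio was 0.377 (0.146 to 0.92). These intervals lie below 1 and cover counting error only, and genes are not replicates.

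The position of the peaks was then compared between the groups, without a test. At pro-survival genes 7 of 9 peaks overlapped the gene body, all of them in BCL2L1, and 0 of 9 lay within 3 kb of a TSS of the gene, which allowed a share of up to 29.9%. At pro-death genes 6 of 17 overlapped the body (gene bodies made up 64.1% of the pro-survival and 45.8% of the pro-death windows), 5 (29.4%) lay within 3 kb of a TSS and 2, at BAX and BNIP3L, covered one. Genes with a peak within 3 kb of a TSS were BAX, BBC3 and BNIP3L, 3 of 10, compared with 10.3% of all protein-coding genes. Counted over peaks, 5 of 26 (19.2%, 8.51 to 37.9%) lay near a TSS of the gene they were counted for, while 21.7% of the 13580 pairs of a peak and a protein-coding gene did. The nearest coding TSS was that of the gene itself for 15 of 26 peaks (57.7%) and for 60.2% of all such pairs. By both measures the peaks of the family lay about as near to their genes as those of other genes.

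Peak length differed little between the groups. The median was 456.0 bp at pro-survival genes (240 to 1859 bp, n = 9) and 552.0 bp at pro-death genes (264 to 1520 bp, n = 17), and that of all 11046 peaks was 451.0 bp with quartiles of 314.0 and 666.0 bp. Of the 26 peaks, 16 were longer than the median of all peaks and 3 (11.5%), at BCL2L1 and BBC3, were at least 1 kb long, compared with 10.5% of all peaks. Peaks covered 1.26% of the pro-survival and 2.38% of the pro-death windows. Another peak lay under 1 kb away for 10 of the 26 (22.5% of all peaks), with pairs at BCL2L1, BAX and BBC3.

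**Figure D4:**
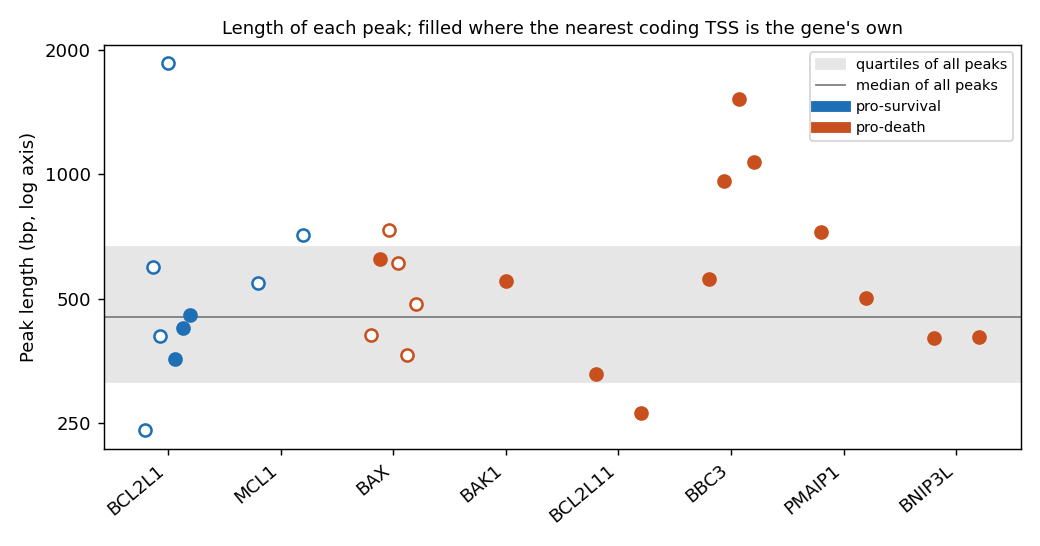
Each point is the length of 1 member peak (y axis, bp, log scale) by gene (x axis), filled where the nearest protein-coding TSS is that of the gene itself, with the median (451.0 bp) and quartiles of all peaks in grey. All 4 BBC3 peaks lie above the median line and are filled, while 5 of 6 BAX peaks are open and the longest peak (1859 bp, BCL2L1) is open.

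To set the motifs of these peaks beside those of all peaks, motifs of LDB1 partners and of other factors of blood cells were counted in the 200 bp around each midpoint. The GATA motif was found in 9 of 26 member peaks (34.6%, 19.4 to 53.8%) and in 47.1% of all peaks. In the whole peak, the shares were 65.4% and 71.4%. The composite was found in 2 of 26 (7.69%, 2.14 to 24.1%) within 200 bp and in 11.1% of all peaks, and every composite also holds a GATA motif. For the TAL1 E-box the share was 12 of 26 (46.2%, 28.8 to 64.5%), compared with 33.8% of all peaks. For each of the 3 motifs the interval of the member peaks included the share of all peaks. A GATA motif or a TAL1 E-box was present in 17 of 26 member peaks (65.4%) and in 63.9% of all peaks.

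By group, the GATA motif was found in 4 of 9 peaks at pro-survival genes (44.4%, 18.9 to 73.3%) and in 5 of 17 at pro-death genes (29.4%, 13.3 to 53.1%). A TAL1 E-box was present in 5 of 9 (55.6%) and 7 of 17 (41.2%). RUNX, KLF and AP-1 motifs appeared at pro-death genes, in 4, 4 and 2 of 17 peaks, and in 0 of 9 peaks at pro-survival genes. At 9 peaks a count of 0 allowed a share of up to 29.9%, which includes the shares of all peaks (20.5%, 13.6% and 9.48%). The CEBP motif (TTGCNNAA) was found in 1 peak, at BCL2L1, compared with 7.44% of all peaks. The ETS motif (CCGGAAGT or GAGGAAGT) was found in none, compared with 2% of all peaks, and 0 of 26 allowed a share of up to 12.9%. The pro-death peaks also had a higher median GC content, 58.5% against 52%, and its part in the motif counts was not tested.

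**Figure D5:**
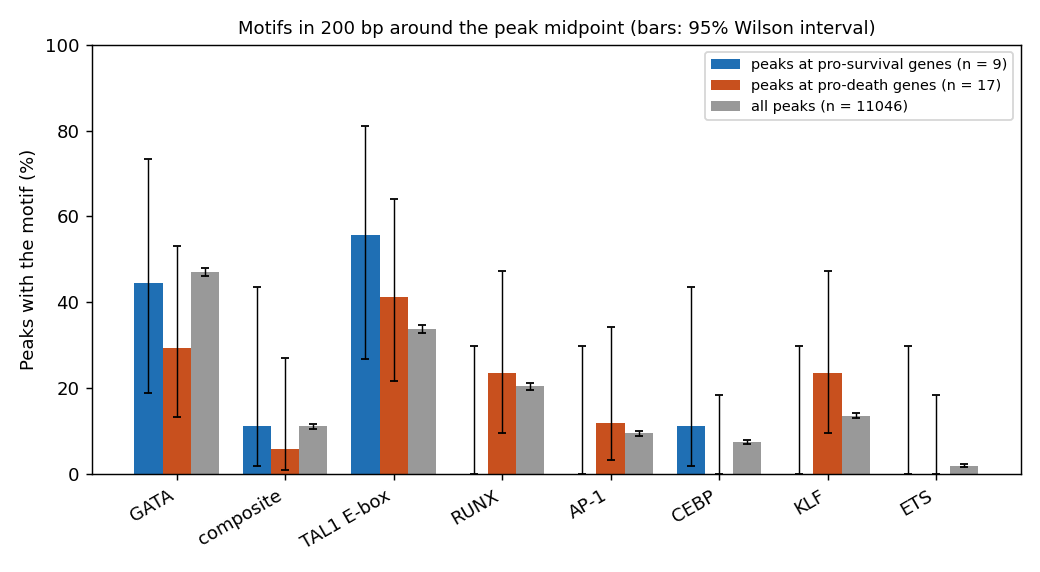
Bars give the share of peaks (y axis, %) with each motif (x axis) in the 200 bp around the midpoint, for peaks at pro-survival genes (n = 9), at pro-death genes (n = 17) and all peaks (n = 11046), with 95% Wilson intervals of counting error. The intervals of both member groups are wide and overlap for each motif, and bars without height stand for 0 peaks.

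The genes around the BCL2 family in the same pathway were searched in the same window. Of 38 such genes 16 (42.1%, 27.9 to 57.8%) had a peak, and this interval includes the 31.8% of all protein-coding genes. They had 27 distinct peaks, 1 of them shared by the neighbours BIRC2 and BIRC3, and no gene had more than 4. Among 15 other genes listed here with the BCL2 family, not all of them members in the strict sense, 5 had a peak (33.3%, 15.2 to 58.3%). This is close to the share of all protein-coding genes (31.8%). BCL2L2, which encodes the pro-survival protein BCL-W, had 2, and the BH3-only genes BID and BMF had 1 each, as did BCL2L15 and BNIP2. Of these 5 genes, BMF and BNIP2 had their own TSS as the nearest coding TSS of the peak.

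Of 8 genes of the apoptosome and caspases 2 had a peak (25%, 7.15 to 59.1%), with the share of all protein-coding genes (31.8%) inside the interval. They were APAF1, which forms the apoptosome, and CASP9, the caspase it activates, with 2 peaks each. None of these peaks had the gene's own TSS as the nearest coding TSS. Of 8 inhibitors of apoptosis and their antagonists 4 had a peak (50%, 21.5 to 78.5%), with the share of all protein-coding genes (31.8%) inside the interval. CFLAR, an inhibitor of caspase-8 at death receptors, had 4 peaks, all with a CFLAR TSS as the nearest, and BIRC2 and HTRA2 had 2 each. Of 7 death receptors and adaptors 5 had a peak (71.4%, 35.9 to 91.8%), compared with 31.8% of all protein-coding genes. The tumour necrosis factor receptor gene TNFRSF1A had 4 (7.5 per 100 kb), of which 1 had a TNFRSF1A TSS as the nearest, and TNFRSF10A, a receptor of TRAIL, had 2. TNFRSF10B, FADD and RIPK1 had 1 each, and FAS and TRADD had none.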

How the data were processed

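The authors prepared CUT&Tag libraries from NB4 cells with a commercial kit. Per the labels and the study's methods, paired-end reads were aligned to hg38 with Bowtie2 2.4.4, and peaks were called with MACS3 3.0 at a q-value limit on paired-end fragments. Use of the IgG library as control is not given in the sources used here. The deposited values were start, end and length in bp, with no score, summit or q-value, and the read depth is unknown. The overexpression named in the labels is not mentioned in the CUT&Tag methods. The IgG library entered no comparison.

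Positions were taken as counted from 1, because the deposited length was end minus start plus 1. Genes, TSS and untranslated regions came from GENCODE release 44 on hg38. The midpoint stood in for the summit. Windows of like length are 1 of 20 classes of window length over all protein-coding genes. Copies of the central 31 bases were counted in hg38 on both strands. A motif place matched on both strands was counted once. Intervals were exact Poisson for counts and densities, Wilson for shares and exact binomial for the density ratio, and they cover counting error only. They take peaks as independent, also where peaks lay under 1 kb apart. The 10 genes, the pathway lists and the motifs were chosen with earlier results of these data known. All 10 genes were named, with the longest peak, peaks near a TSS and peaks with a composite, and the other peaks where they complete a gene. Of each pathway list the 3 genes with most peaks were to be named, and the further pathway genes were named after their values were seen. Some genes of the pathway lists are not reported here by name. The scripts were tested on simulated data. The tools were pysam 0.24.0, SciPy 1.17.1, pandas 2.3.3, numpy 2.4.6, matplotlib 3.10.9 and Python 3.11.15.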

Additional observations from a re-analysis of the deposited data

How the results depend on the processing

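No paired analysis was possible because the LDB1 and IgG groups were single libraries. Of 70 values recomputed under alternatives, 61 stayed within the counting interval of the reported value or, for counts, within 1.5 times, and 9 did not. With 3 kb on each side of the gene, 5 member genes had a peak and 8 peaks were left at pro-death genes. In the same window 8 of the 38 pathway genes had a peak, compared with 19.8% of all protein-coding genes. With peaks longer than the median of all peaks, 5 peaks were left at pro-survival and 11 at pro-death genes. With peaks whose nearest coding TSS was the gene's own, 3 were left at pro-survival genes, or 0.673 per 100 kb. The GATA share was 65.4% in the whole peak. Each of these settings narrowed the windows, kept fewer peaks or, for the GATA share, searched longer sequences. Leaving out each gene in turn moved the ratio of pro-survival to pro-death density from 0.151 (without BCL2L1) to 1.12 (without BCL2). Under the other alternatives it lay between 0.248 and 0.675. Whether the interval of the ratio included 1 or lay below it depended on the peaks and genes counted, as given above. With no peak heights and 1 library, neither the strength of a peak nor its repeatability was measured, and a gene without a peak may carry signal below the caller's threshold.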
